A study of Rattus norvegicus with 12 samples.

Results

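The 7 genes described here, Reg3g, Lcn2, Prss32, Cuzd1, Fam3d, Scgb1a1 and Clca1, encode proteins that are mostly secreted or sit at the secretory surface of lining epithelia, and several of them are known from defence of the gut, airway or uterine surface. They were chosen by their rise in E2 against vehicle uteri in these same rats, and they are 7 of the 14506 genes that had a probe set naming a single gene. Each is read by 1 probe set, so no gene has a second measurement on the array. Uterine RNA came from ovariectomized young adult female Lewis rats, in 4 groups of 3 rats with 1 Affymetrix array per rat. Vehicle rats received DMSO, E2 rats received 17β-estradiol at 4 µg per kg per day, 3-MC rats received 3-methylcholanthrene at 15 mg per kg per day, and E2+3-MC rats received both agents. All groups, vehicle included, lacked ovaries and were dosed for 3 days, with uteri taken 24 h after the last dose. The labels call the 3 rats of each group biological samples, and nothing in them says whether rats were littermates or were handled together. Per the labels the whole uterus was the source, so a lower value can mean fewer cells of a type or less RNA per cell, and these cannot be told apart.

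Estradiol acts in the rodent uterus through estrogen receptor alpha, a transcription factor that binds DNA directly at estrogen response elements or through other bound factors. In ovariectomized animals repeated estradiol thickens the luminal epithelium and starts its secretion, and the uterine fluid then carries antimicrobial and iron-binding proteins. 3-Methylcholanthrene is a polycyclic aromatic hydrocarbon that activates the aryl hydrocarbon receptor, which binds its own response elements and is known to interact with estrogen signalling. Reg3g is a lectin that kills Gram-positive bacteria at epithelial surfaces. Lcn2 is a lipocalin that binds bacterial siderophores and so withholds iron. Prss32 is a serine protease of a tryptase-like cluster. Cuzd1 carries CUB and zona pellucida domains and is known from zymogen granules of the pancreas and from estrogen-treated uterus. Fam3d is a cytokine-like secreted protein of the digestive tract. Scgb1a1 is the secretoglobin of airway club cells, also called uteroglobin, and Clca1 is a secreted metalloprotease that processes mucus. The arrays measured RNA only, so neither secretion nor the location of the proteins was measured.

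Values are the deposited array intensities, and differences are on the scale log2(intensity + 16), on which changes of weakly expressed genes come out too small. A limit of 6.44 on that scale separates off the dimmest 30% of genes, ranked by mean level on the 12 arrays, and these were not tested. The table gives no detection call, so a level under this limit cannot be told from background. In vehicle and 3-MC uteri 6 of the 7 genes had means under it, and Lcn2 was above it in every group. Those 6 genes therefore passed the filter only through the estradiol groups. Arrays of the same group correlated at r = 0.947 to 0.987 over all probe sets. Vehicle rat 1 stood apart with the widest spread of values, an interquartile range of 2.70 log2 units against 1.87 to 2.35 on the other arrays. Markers of the tissue were present: 7 of 7 measured genes of uterine identity and 19 of 19 measured epithelial genes were above the limit in E2 and in E2+3-MC uteri.

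Reg3g had intensities of 11.3, 32.6 and 66.8 in the 3 vehicle rats and 49.6, 48.9 and 55.1 in the 3-MC rats. After E2 the same probe set read 8948, 8009 and 10810. After E2+3-MC it read 3672, 718 and 9726. Both groups without estradiol lay far below both groups with it, and within E2+3-MC the 3 rats were spread widely, with rat 3 inside the E2 range and rats 1 and 2 below it. By intensity + 16 the highest E2+3-MC rat exceeded the lowest 13.3-fold, against 1.35-fold in the E2 group. In log2 units the group means were 5.58 ± 0.80 (SD, n = 3) for vehicle, 6.07 ± 0.07 for 3-MC, 13.17 ± 0.22 for E2 and 11.54 ± 1.88 for E2+3-MC.

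Lcn2, the siderophore-binding lipocalin, had intensities of 343, 79.0 and 91.0 in vehicle rats and 108, 118 and 199 in 3-MC rats. The E2 rats had 2311, 1548 and 1863, and the E2+3-MC rats had 1506, 864 and 1961. The estradiol groups did not overlap the others, but vehicle rat 1 was well above the other vehicle rats. Lcn2 is also made by fat cells, and the mean level of 8 tested adipocyte genes, a list added after the data were seen, was 10.58 in vehicle rat 1 against 8.09 and 8.47 in the other vehicle rats. The part of adjoining fat in the Lcn2 value of that rat was not tested. Group means of Lcn2 were 7.27 ± 1.06 log2 units (SD, n = 3) for vehicle, 7.25 ± 0.43 for 3-MC, 10.89 ± 0.29 for E2 and 10.43 ± 0.60 for E2+3-MC.

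The protease gene Prss32 read 11.3, 17.4 and 22.5 in vehicle uteri and 23.6, 17.4 and 13.2 in 3-MC uteri. It read 5508, 4432 and 5167 after E2 and 2728, 1835 and 4501 after E2+3-MC. No rat without estradiol came near a rat with it. Among E2+3-MC rats only rat 3 reached the range of the E2 group.

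Cuzd1 read 18.5, 39.6 and 23.2 in vehicle uteri, and 68.0, 35.2 and 84.1 after 3-MC. After E2 it read 5564, 5027 and 5438, and after E2+3-MC 4057, 3786 and 5531. The 3 E2 values were close together, with an SD of 0.08 log2 units. In the 3-MC group rats 1 and 3 lay above every vehicle rat and rat 2 lay within the vehicle range.

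Fam3d, the digestive-tract cytokine-like gene, read 20.6, 21.5 and 23.1 in vehicle rats and 21.7, 22.9 and 18.7 in 3-MC rats. It read 2334, 1962 and 2396 after E2 and 1903, 1050 and 2404 after E2+3-MC. The 6 uteri without estradiol were nearly level, with group SDs of 0.05 and 0.08 log2 units around means of 5.24 and 5.21.

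Scgb1a1, or uteroglobin, read 9.64, 11.7 and 18.5 in vehicle rats and 29.8, 23.5 and 33.2 in 3-MC rats. After E2 the values were 2158, 1594 and 1494, and after E2+3-MC they were 1053, 756 and 2377. Every 3-MC rat was above every vehicle rat, at levels under the limit of dim genes.

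Clca1 had the lowest E2 readings among the 7 probe sets, which does not rank it against the other genes because probe sets differ in response. Vehicle rats had 42.8, 16.4 and 20.3, and 3-MC rats had 28.0, 18.4 and 25.02. E2 rats had 521, 228 and 411, and E2+3-MC rats had 289, 250 and 452. Estradiol-treated uteri again lay above all others, and the 2 groups with estradiol overlapped.

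**Figure D1:**
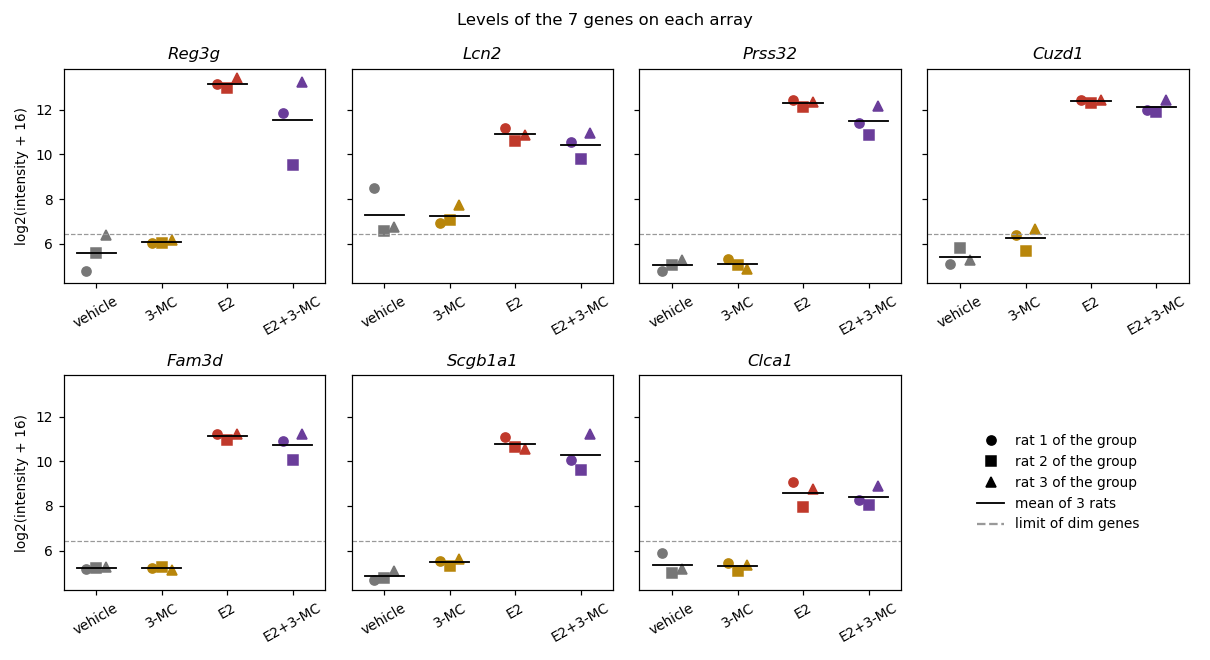
Level of each of the 7 genes on each array, as log2(intensity + 16), by treatment group; symbols are single rats, bars are means of 3 rats and the dashed line is the limit of dim genes at 6.44. Every uterus with estradiol lies above every uterus without it for all 7 genes, which were chosen on the E2 and vehicle arrays. The share of all genes with that separation was not counted. For E2+3-MC above 3-MC alone it was 25.7% of the genes tested. The E2+3-MC rats are spread more widely than the E2 rats for 6 of the 7, as in 40.6% of all genes tested.

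The effect of estradiol without 3-MC chose these genes, so E2 minus vehicle is given as a description. The differences were 7.59 for Reg3g, 3.62 for Lcn2, 7.26 for Prss32, 6.99 for Cuzd1, 5.89 for Fam3d, 5.91 for Scgb1a1 and 3.22 for Clca1. Their median was 5.91 against −0.11 over all 10154 genes tested, and 18.1% of all genes were called in this comparison, 8.7% as higher. E2+3-MC minus vehicle uses the same vehicle arrays, and its differences ran from 3.03 for Clca1 to 6.71 for Cuzd1, where 6.06% of all genes were called higher. Neither comparison adds evidence to the choice.

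The comparison of E2+3-MC with 3-MC asks whether estradiol raised the same genes in the presence of 3-MC. Its 6 arrays are not those of E2 minus vehicle. They are still not independent of the choice, because the genes were chosen with earlier results of these data known. The filter also used the E2+3-MC arrays, so the p-values below describe these genes and do not test the choice. All 7 rose. In 6 of them the 3-MC mean was under the limit of dim genes, so the fitted differences and errors hold on the scale log2(intensity + 16) only. For those 6 a fold of the observed group means is given, counted on that scale from the limit wherever a 3-MC rat lay under it. Such a fold is a lower bound only as regards the dim 3-MC values and leaves out sampling error. The confidence interval of the fitted fold started at 18.4 for Reg3g and 40.5 for Cuzd1, below the folds from the limit. For Prss32, Fam3d, Scgb1a1 and Clca1 it started above them. Prss32 differed by 6.39 ± 0.26 log2 units (SE; adjusted p = 6.98e-11, limma with Benjamini-Hochberg adjustment over all genes tested, two-sided). Its fold from the limit was 32.7. For Cuzd1 the difference was 5.87 ± 0.25 (adjusted p = 8.21e-11), with a fold from the limit of 48.4. For Fam3d the difference was 5.52 ± 0.24 (adjusted p = 8.48e-11), with a fold from the limit of 19.6. Reg3g, with the widest error of the group, differed by 5.47 ± 0.60 (adjusted p = 9.43e-06), with a fold from the limit of 34.2. Scgb1a1 differed by 4.81 ± 0.31 (adjusted p = 1.21e-08), with a fold from the limit of 14.4. Clca1 differed by 3.09 ± 0.29 (adjusted p = 1.62e-06), with a fold from the limit of 3.86. Lcn2, which lay above the limit in all 3 of the 3-MC rats, rose 9.08-fold on that scale (3.18 ± 0.40, adjusted p = 5.39e-05).

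Over the whole array 6.82% of the genes tested were called higher in this comparison, and in 25.7% the 3 E2+3-MC rats all lay above the 3 3-MC rats, as they did for all 7 genes. The median difference of the 7 was 5.47 against 0.08 over all genes. With the filter on dim genes removed all 7 remained called, where 4.79% of 14506 genes were called higher. The differences depend on the constant added before the log: the Prss32 difference was 7.25 with a constant of 1 and 5.14 with 64, and that of Scgb1a1 was 5.39 and 3.82.

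**Figure D2:**
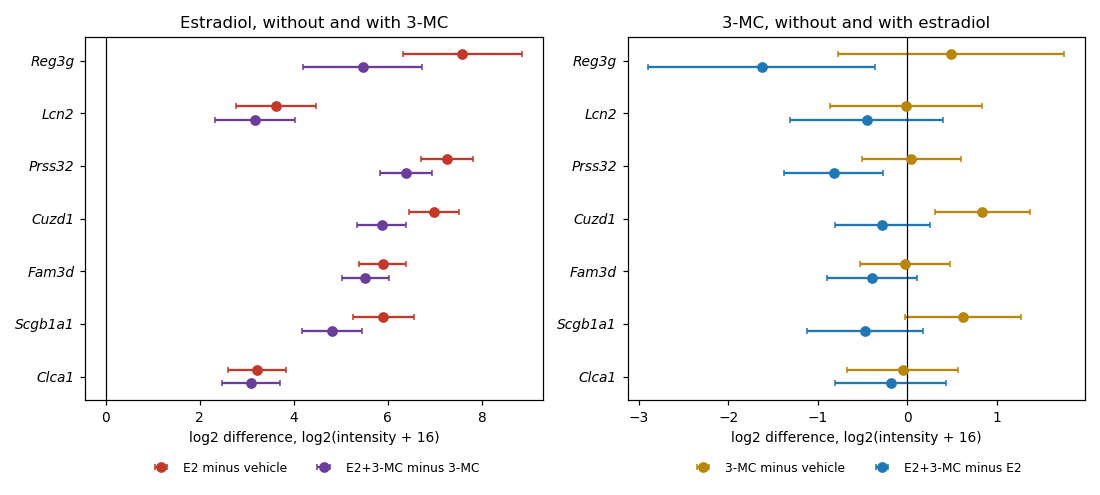
Differences of the 7 genes in log2(intensity + 16) with 95% confidence intervals from the limma fit; the left panel shows estradiol against no estradiol without and with 3-MC, and the right panel shows 3-MC against no 3-MC without and with estradiol. On the left the E2+3-MC minus 3-MC differences run from 3.09 (Clca1) to 6.39 (Prss32), and on the right 2 of the 7 intervals of E2+3-MC minus E2, for Reg3g and Prss32, lie wholly below 0.

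Given alone, 3-MC did not move any of the 7 genes past the threshold, and it moved no gene on the array (0 of 10154 called by limma, with 82 genes, 0.808%, at an unadjusted p under 0.05). The comparison shares the vehicle arrays that were chosen as low, which pushes its differences upward. For Cuzd1 the difference was 0.84 ± 0.25 log2 units (SE; unadjusted p = 0.00375, adjusted p = 1.00), with 3-MC rat 2 inside the vehicle range. For Scgb1a1 it was 0.62 ± 0.31 (adjusted p = 1.00) without overlap, as in 2.56% of all genes. The means of both genes were under the limit of dim genes in both groups, so no fold is given. Reg3g differed by 0.49 ± 0.60, and the other 4 genes lay between −0.05 and 0.05.

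With estradiol on board, 3-MC again gave no call in the fit of all 4 groups (0 of 10154 called by limma, 9.23% at an unadjusted p under 0.05). The E2 arrays were chosen as high, which pushes these differences down. All 7 genes had lower means in E2+3-MC than in E2, where 24.9% of all genes did, and for all 7 the groups overlapped. Reg3g differed most, by −1.63 log2 units with a 95% interval of −2.89 to −0.36 (unadjusted p = 0.0148, adjusted p = 0.503), at rank 3 from the lowest of all genes. Prss32 differed by −0.82 with an interval of −1.38 to −0.27 (unadjusted p = 0.00611, adjusted p = 0.488). The other differences were −0.47 for Scgb1a1, −0.46 for Lcn2, −0.39 for Fam3d, −0.28 for Cuzd1 and −0.19 for Clca1, each with an interval that included 0. Reg3g and Prss32 were called only when the fit held the E2 and E2+3-MC arrays alone (adjusted p = 0.0353 and 0.0468). The Reg3g difference rested on single rats: it was −0.62 without E2+3-MC rat 2 and −2.48 without E2+3-MC rat 3.

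The interaction, which asks whether the estradiol effect differed with and without 3-MC, uses the vehicle and E2 arrays that chose the genes. No gene on the array was called (limma; 2.93% at an unadjusted p under 0.05). The estimates were −2.12 for Reg3g, −1.12 for Cuzd1, −1.09 for Scgb1a1, −0.87 for Prss32, −0.44 for Lcn2, −0.37 for Fam3d and −0.14 for Clca1, with adjusted p from 0.977 to 0.979. For Reg3g the 95% interval ran from −3.91 to −0.33, so the design leaves a wide range of sizes.

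Within the E2+3-MC group the 7 genes ranked the rats in 1 order. Rat 2 was lowest, rat 1 intermediate and rat 3 highest for every gene, with median deviations from the group mean of −0.65, −0.05 and 0.51 log2 units. Over all genes tested the median deviations of those rats were −0.10, 0.02 and 0.08. Rat 2 was the lowest E2+3-MC rat for 59.0% of all genes and for 82.4% of the 693 genes called higher with estradiol on 3-MC. After quantile normalization rat 2 was still lowest for all 7, and for 40.2% and 63.8% of those genes. In the E2 group rat 2 was lowest for 6 of the 7, with Scgb1a1 lowest in rat 3, and for 68.6% of all genes.

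The spread within E2+3-MC was widest for Reg3g. Its SD there was 8.64 times that in E2, and the ratio was 4.02 for Prss32, 3.92 for Fam3d, 3.79 for Cuzd1, 2.99 for Scgb1a1, 2.08 for Lcn2 and 0.73 for Clca1. A ratio above 1 was found in 6 of the 7 genes and in 40.6% of all genes, with a median of 0.822 over all genes. The divisor is the SD of the E2 arrays that chose the genes, and such a choice favours genes with close E2 values, so nothing is read from this difference. The ratios rest on 3 rats per group and were not tested. By the ratio of the highest to the lowest E2+3-MC rat, in intensity + 16, Reg3g stood at rank 3 on the array, next to Olfm4, a secreted glycoprotein of epithelium and neutrophils, at 13.7-fold. Reg3b, the neighbouring lectin gene, followed at rank 11 with 6.44-fold, and the median over all genes was 1.25-fold.

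Epithelial markers moved with this order, and so did some lists of other tissues. The mean level of the 19 epithelial genes was 8.81 in E2+3-MC rat 2, 9.24 in rat 1 and 9.48 in rat 3, against 9.35 to 9.72 in E2 rats, 7.97 to 8.35 in 3-MC rats and 8.07 to 8.89 in vehicle rats. Krt8, a keratin of simple epithelia, read 746 in E2+3-MC rat 2 against 2167 and 2958 in rats 1 and 3. Slpi, an epithelial protease inhibitor with antibacterial activity, read 446 against 1462 and 3465. The mean of each of the 19 was above the limit of dim genes in all 4 groups. On these levels the order was not particular to epithelium. In E2+3-MC rats 2, 1 and 3 smooth muscle markers had mean levels of 11.27, 11.43 and 11.67. Genes of uterine identity had 9.35, 9.52 and 9.59. Stroma markers did not keep the order, with 10.19, 10.39 and 10.21. Adipocyte markers ran in the reverse order: the mean level of the 8 tested was 9.46 in E2+3-MC rat 2, 8.48 in rat 1 and 8.02 in rat 3, against 7.21 to 7.69 in E2 rats. After quantile normalization the epithelial markers kept the order in E2+3-MC rats 2, 1 and 3 (8.845, 9.136 and 9.267). Smooth muscle markers kept it over a narrower range (11.327, 11.386 and 11.443), and genes of uterine identity lost it (9.400, 9.416 and 9.364). The part of epithelial or fat content in the low values of rat 2 was not tested.

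**Figure D3:**
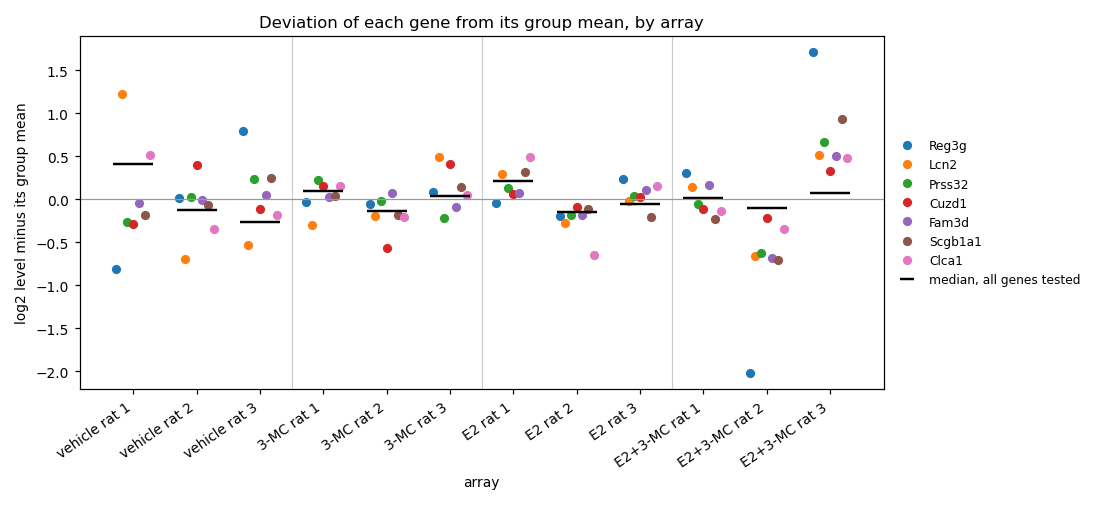
Deviation of each of the 7 genes from its own group mean, in log2 units, on each of the 12 arrays; the black bar is the median deviation of all genes tested. All 7 genes are below their mean in E2+3-MC rat 2, down to −2.02 for Reg3g, and above it in E2+3-MC rat 3, up to 1.71.

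Among the 7, 4 genes deviated together from rat to rat. Over the 12 arrays, with group means removed, the 6 pairs among Reg3g, Prss32, Fam3d and Scgb1a1 correlated at r = 0.782 to 0.918 (0.625 to 0.893 after quantile normalization). The other 15 pairs ran from 0.011 to 0.758, the highest being Lcn2 with Clca1. After quantile normalization these 15 pairs ran from −0.029 to 0.787, so the ranges overlapped. Lcn2 with Clca1 (0.787) then exceeded Prss32 with Fam3d (0.782) and Fam3d with Scgb1a1 (0.625). The pairs among the 4 genes thus stood above all other pairs only before that normalization. Cuzd1 correlated with no other member above 0.526. These 12 points share arrays and hold 3 rats per group, and the grouping was made after the values were seen. For the 4 genes the E2+3-MC rats weigh most, because their SD was largest in that group. Lcn2 had its largest SD in vehicle (1.06, against 0.60 in E2+3-MC), Clca1 in E2 (0.58) and Cuzd1 in 3-MC (0.50). Both Lcn2 and Clca1 read higher in vehicle rat 1 than in the other vehicle rats.

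The genes closest to the mean of the 7 over all 12 levels were Cftr, the epithelial chloride channel (r = 0.999), Galnt3, an enzyme that starts mucin-type O-glycosylation (0.999), Ccl11, an eosinophil-attracting chemokine (0.998), Fam3b, a paralog of Fam3d (0.997), and Vtcn1, an inhibitory B7-family protein (0.996). The 12 arrays form 2 clusters, with and without estradiol, and these r values mainly reflect that split. By deviations from group means, which remove it, the nearest genes were Olfm4 and Npbwr1 for Reg3g (r = 0.961 and 0.950), Rbp2, a retinol-binding protein of absorptive epithelium, and Odam for Fam3d (0.958 and 0.950), and Tprg1 and Unc5cl for Scgb1a1 (0.960 and 0.950). Unc5cl was also nearest to Prss32 (0.914), followed by Btc, an EGF-receptor ligand (0.913). For Lcn2 they were Polr2i and Mmp23 (0.989 and 0.988), for Clca1 Zscan21 and Sra1 (0.975 and 0.962), and for Cuzd1 Zc3h8 and Wdr47 (0.871 and 0.843). Of the genes nearest to Lcn2, Clca1 and Cuzd1 none was called in E2+3-MC minus 3-MC, whereas Olfm4, Rbp2, Odam, Tprg1, Unc5cl and Btc rose. Npbwr1 differed by 0.89 (adjusted p = 0.0512).

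Other secreted defence genes rose in the same comparison. Of 48 listed genes, 39 were measured and 23 tested, and 14 rose and none fell in E2+3-MC against 3-MC, where 6.82% of all genes rose and 1.39% fell, with a median of 0.98 log2 units against 0.08 over all genes. The largest rises were those of C3, the central complement protein (5.28 ± 0.26, SE), Dmbt1, a bacteria-binding scavenger receptor protein (5.05 ± 0.31), Lpo, lactoperoxidase (4.999 ± 0.34), and Reg3b (3.35 ± 0.42), with adjusted p of 4.87e-05 or less by limma. Slpi rose by 2.82, the calprotectin subunits S100a9 and S100a8 by 2.17 and 1.77, and Pigr, which carries IgA into the lumen, by 1.18. Ltf, lactoferrin, and the cathelicidin Camp were under the limit in every group and were not tested. Of 12 tested mucus genes, 4 rose and none fell (median 0.32): Clca4 (3.30 ± 0.32), Galnt3 (3.28 ± 0.21), the membrane mucin Muc20 (1.78 ± 0.27) and Agr2, a folding factor for mucins (1.22 ± 0.24). Muc1 differed by 0.53 (adjusted p = 0.215) and the trefoil gene Tff3 by −0.03 (adjusted p = 0.971).

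Paralogs split within families. Of 23 tested paralogs 6 rose and none fell, where 6.82% of all genes rose, with a median of 0.11 against 0.08 over all genes. Reg3b rose with Reg3g, from 8.79, 14.9 and 10.3 in 3-MC rats to 262, 92.8 and 685 in E2+3-MC rats. Reg3a, Reg1a and Reg4 were under the limit in all groups. Fam3b rose by 4.64 ± 0.24 (adjusted p = 7.37e-10), while Fam3a and Fam3c differed by 0.23 and 0.24 (adjusted p = 0.694 and 0.711). Clca4 rose with Clca1, and Clca2 and Clca5 were under the limit throughout. Dmbt1, which like Cuzd1 carries CUB and zona pellucida domains, rose with it, as did the CUB-domain gene Cdcp1 (1.08 ± 0.27, adjusted p = 0.0164). Prss8, prostasin, was the single relative of Prss32 that passed (1.01 ± 0.30, adjusted p = 0.0498). Of the lipocalin relatives of Lcn2, none of Lcn9, Lcn10, Lcn12 and Ptgds passed, and the secretoglobin Scgb3a1 differed by 0.14 (adjusted p = 0.782). Another secretoglobin, Scgb2a1 (131, 90.5 and 102 in E2; 185, 142 and 175 in E2+3-MC; 27.7, 30.2 and 12.6 in 3-MC), was left out by the filter. Closely related genes can share hybridisation, and this was not tested.

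A list drawn up for receptors and carriers of these proteins mostly did not pass. Of its 5 tested genes 1 rose and none fell in E2+3-MC against 3-MC, where 6.82% of all genes rose. The risen gene was Anxa1, a phospholipase-inhibiting annexin (1.43 ± 0.26, adjusted p = 0.00171, limma). Anxa1 is not itself a receptor or carrier of the 7 proteins. Extl3, a reported Reg receptor, differed by −0.21 (adjusted p = 0.768, limma). Lrp2, or megalin, an endocytic receptor that takes up Lcn2 and Scgb1a1, was left out by the filter but ran opposite to its ligands. It read 149, 201 and 115 in vehicle, 185, 151 and 176 in 3-MC, 5.86, 10.1 and 6.87 in E2, and 11.6, 11.3 and 7.49 in E2+3-MC. It was singled out after its values were seen, and its estradiol groups were under the limit.

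Reg3g and Lcn2 are known targets of IL-17, IL-22, NF-kB and STAT3 signalling in the gut and airway. Of 29 tested genes of those pathways 9 rose and none fell in E2+3-MC against 3-MC, where 6.82% of all genes rose and 1.39% fell. Their median was 0.46 against 0.08 over all genes. Il1rn, the IL-1 receptor antagonist, rose by 2.14 ± 0.35, Tlr2 by 1.72 ± 0.34, and the lipopolysaccharide-binding Cd14 and Lbp by 1.37 ± 0.27 and 1.32 ± 0.28. Nfkbia, an early NF-kB target, rose by 0.88 (adjusted p = 0.0148). Il17a, Il17f, Il22 and Il6 were under the limit in every group, and Stat3 and Socs3 differed by 0.57 and 0.25 (adjusted p = 0.215 and 0.556). Without vehicle rat 1, 14 of the 29 rose and 1 fell. Calls over all 10154 genes grew as well, to 1739 higher and 437 lower, from 693 and 141.

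The known estrogen-response genes of the uterus responded on these arrays: of 10 tested, 7 rose and 1 fell in E2+3-MC against 3-MC. Mmp7, a matrix protease of luminal epithelium, rose by 5.66, C3 by 5.28, the calcium-binding S100g by 4.09, Ccl11 by 3.97, Cfi, complement factor I, by 3.03, Igf1 by 1.67 and Pgr, the progesterone receptor, by 0.72 (adjusted p = 0.0494). Clu, clusterin, fell by 2.72, and Esr1 and Muc1 differed by −0.20 and 0.53 (adjusted p = 0.761 and 0.215). Several of these genes are also in the defence and mucus lists, and the lists were drawn up with earlier results of these data known.

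Cell type markers were read for tissues in which the 7 genes are better known. Of 19 epithelial markers 9 rose and 1 fell in E2+3-MC against 3-MC, where 6.82% of all genes rose and 1.39% fell. Elf3 (3.27), Prom1 (2.52), Krt8 (2.27) and Krt19 (2.13) rose, and Foxa2, a factor of uterine glands, fell by 0.78 (adjusted p = 0.0471, limma). Epcam differed by 0.75 (adjusted p = 0.0574) and Cldn3 by −0.20. Without vehicle rat 1, 14 of the 19 rose and 1 fell, while the genes called higher over the whole array grew from 693 to 1739 of 10154. Of 5 tested pancreatic acinar markers and 7 tested intestinal markers none was called in this comparison, although Cuzd1 and Fam3d are best known from those organs. At 6.82% of all genes called higher, the absence of calls in lists this short says little. In E2 minus vehicle 1 of the 5 and 4 of the 7 fell and none rose, where 959 of all 10154 genes fell. Of 3 tested markers of airway club cells, the source of Scgb1a1 in the lung, the surfactant protein gene Sftpd rose (0.98), Aldh1a1 fell by 1.97 and Scgb3a1 did not pass. Of 2 tested goblet cell markers Agr2 rose and Tff3 did not pass.

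Some neutrophil markers also rose. Of 17 measured neutrophil genes 8 were tested, and 6 rose where 6.82% of all genes did: Olfm4 (3.96), S100a9, S100a8, Fcnb (1.43), Csf3r (0.87) and Itgam (1.04). S100a9 and S100a8 are also in the defence list, and Olfm4 is made by epithelium too. In E2 minus vehicle 5 of the 8 rose and 2 fell. The mean level of the 8 was 7.01 to 7.90 in E2+3-MC, 7.54 to 8.02 in E2, 5.96 to 6.33 in 3-MC and 6.04 to 6.52 in vehicle. The defining granule genes Ltf, Camp and Ngp were under the limit in every group, and Mpo differed by 0.22 (adjusted p = 0.819). Lcn2 is also a granule gene of neutrophils, and their part in its rise was not tested.

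**Figure D4:**
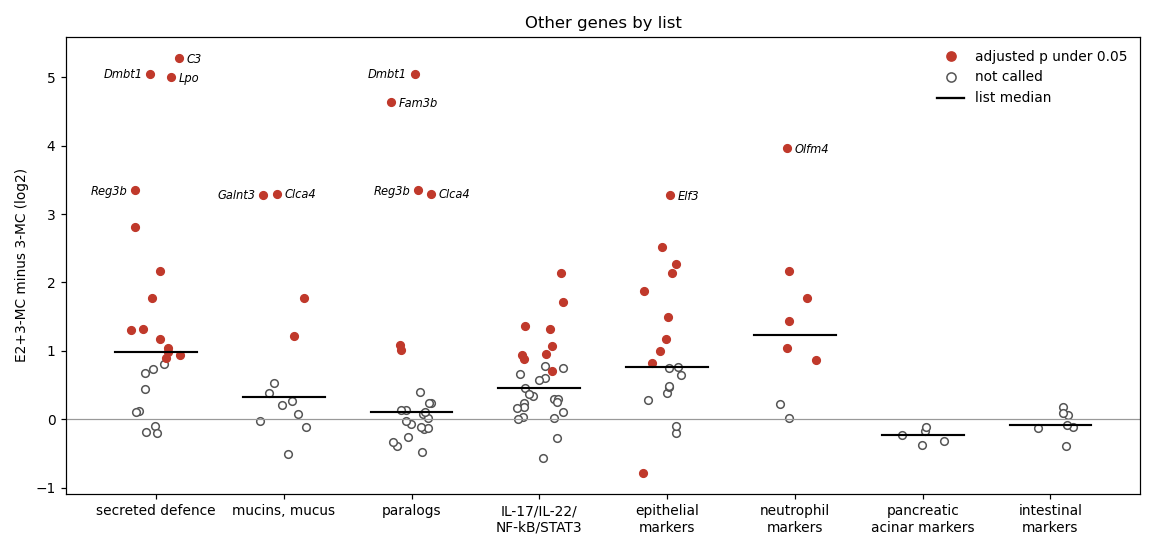
E2+3-MC minus 3-MC in log2 units for the tested genes of 8 lists, the 7 genes themselves left out; filled points passed an adjusted p under 0.05, open points did not, and bars are list medians. Rises of 3 or more log2 units occur in the defence, mucus, paralog, epithelial and neutrophil lists, and the pancreatic and intestinal lists hold no called gene.

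The genes lie on 6 chromosomes, with Cuzd1 and Scgb1a1 both on chromosome 1, Clca1 on 2, Lcn2 on 3, Reg3g on 4, Prss32 on 10 and Fam3d on 15. By gene order in RefSeq (assembly GRCr8), with 5 protein-coding genes taken on each side, there were 70 neighbours, of which 51 were measured and 35 tested. In E2+3-MC against 3-MC 5 of the 35 rose and none fell, where 6.82% of all genes rose. Reg3b lies 3 places from Reg3g and Dmbt1 3 places from Cuzd1, and Clca4 adjoins Clca1. Asrgl1, an asparaginase next to Scgb1a1, rose by 1.34, and Sh3glb1, 4 places from Clca1, by 0.84. None of the 16 tested neighbours of Lcn2, Prss32 and Fam3d was called. The window was chosen after the data were seen, and 3 of the 5 risen neighbours are relatives of the gene they adjoin.

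**Figure D5:**
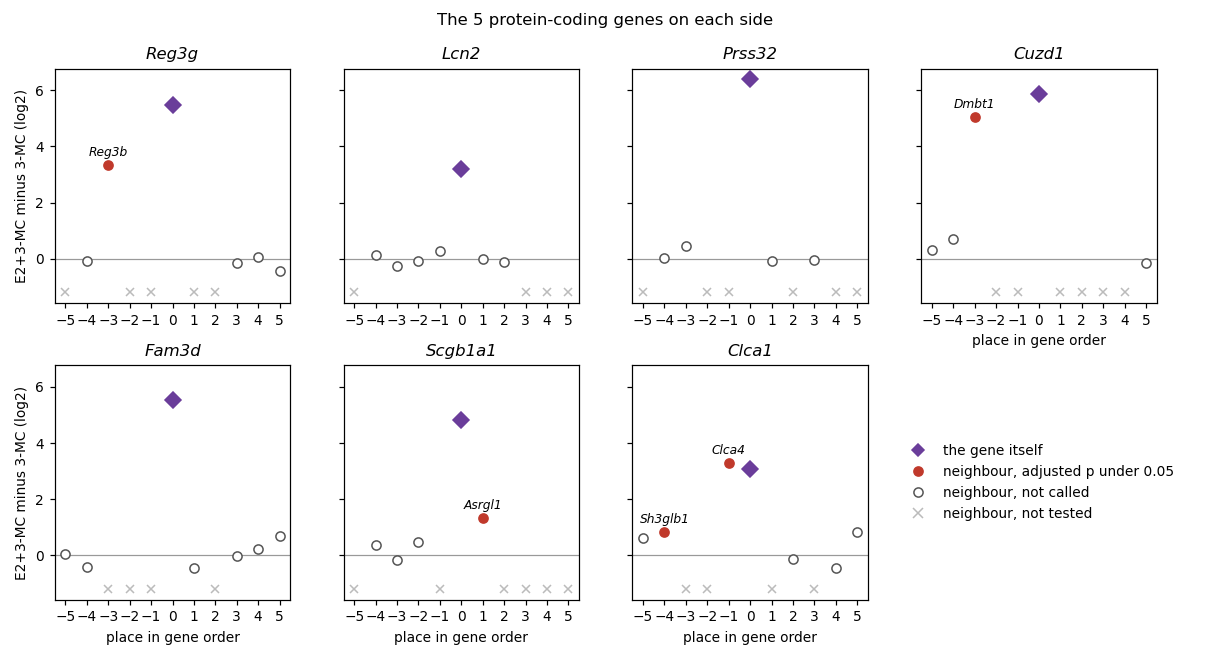
E2+3-MC minus 3-MC in log2 units for each of the 7 genes (diamond) and the 5 protein-coding genes on each side in gene order, numbered from the gene; filled circles passed an adjusted p under 0.05, open circles did not, and crosses mark genes that were not tested. Reg3b, Dmbt1, Asrgl1, Clca4 and Sh3glb1 are the 5 called neighbours, and the tested neighbours of Lcn2, Prss32 and Fam3d, none called, lie between −0.45 and 0.67.

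Promoter sequence is shown for 5 of the genes because they rose together and because receptors for both agents bind DNA. RefSeq (GRCr8) gave a start site for all 7, and the 250 bases before it were searched on both strands for 19 patterns, as in all 33469 promoters of that table. Capitals mark GGTCA, the core site shared by nuclear receptors, and GCGTG, the core of the aryl hydrocarbon receptor's response element. They also mark an NF-kB pattern in Lcn2 (GGGA, then 2 free bases, then TTCC), the C/EBP pattern TTGCNNAA, and TATAAA, the TATA box. A match on the opposite strand appears as the reverse complement. Each sequence runs 5′ to 3′ in the direction of the gene and ends at the base before its start.
Cuzd1, chr1:195532734-195532983, minus strand: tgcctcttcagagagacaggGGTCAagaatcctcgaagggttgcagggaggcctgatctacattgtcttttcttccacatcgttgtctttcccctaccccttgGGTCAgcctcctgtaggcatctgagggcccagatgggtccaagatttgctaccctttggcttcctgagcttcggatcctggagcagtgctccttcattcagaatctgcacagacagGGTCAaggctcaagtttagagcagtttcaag
Prss32, chr10:13386841-13387090, plus strand: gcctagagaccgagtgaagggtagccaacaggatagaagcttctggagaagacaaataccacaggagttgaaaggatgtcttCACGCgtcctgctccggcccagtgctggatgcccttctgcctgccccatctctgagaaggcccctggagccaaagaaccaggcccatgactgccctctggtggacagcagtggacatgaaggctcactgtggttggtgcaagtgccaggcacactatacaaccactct
Scgb1a1, chr1:215409687-215409936, minus strand: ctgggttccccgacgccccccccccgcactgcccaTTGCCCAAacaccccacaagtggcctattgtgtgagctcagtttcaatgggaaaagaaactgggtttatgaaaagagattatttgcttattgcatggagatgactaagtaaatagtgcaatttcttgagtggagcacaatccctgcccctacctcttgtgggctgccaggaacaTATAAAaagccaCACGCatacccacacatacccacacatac
Lcn2, chr3:36081781-36082030, minus strand: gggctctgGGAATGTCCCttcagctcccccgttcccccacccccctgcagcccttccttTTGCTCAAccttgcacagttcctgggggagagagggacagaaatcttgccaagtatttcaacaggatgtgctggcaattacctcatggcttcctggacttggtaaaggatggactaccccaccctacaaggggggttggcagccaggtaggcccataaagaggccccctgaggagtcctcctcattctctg
Clca1, chr2:236624715-236624964, minus strand: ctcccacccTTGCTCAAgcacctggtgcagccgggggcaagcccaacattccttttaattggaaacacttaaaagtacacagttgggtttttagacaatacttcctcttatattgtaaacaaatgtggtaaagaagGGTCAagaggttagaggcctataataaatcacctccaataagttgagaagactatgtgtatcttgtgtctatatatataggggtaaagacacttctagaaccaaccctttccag

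The full palindrome of the estrogen response element (GGTCA, then 3 free bases, then TGACC) was in none of the 7 promoters and in 0.0239% of all promoters. The core site GGTCA was in 3 of the 7, against 35.4% of all, and Cuzd1 held it 3 times, starting 230, 147 and 31 bases before the start. The others were Fam3d and Clca1. Its longer form AGGTCA was in none (14.1% of all). GCGTG was in Prss32, 168 to 164 bases before the start, and in Scgb1a1, 29 to 25 bases before it (25.9% of all). TTGCNNAA was in Lcn2, Scgb1a1 and Clca1 (9.22% of all), and its wider form TTGNNNAA in the same 3 (33.8%). The NF-kB pattern was in Lcn2 alone (1.08% of all), as was a wider form that includes it (GGG, then 3 free bases, then TTCC; 4.53%). TATAAA was in Reg3g, 32 to 27 bases before the start, and in Scgb1a1, 41 to 36 bases before it (12.9% of all).

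The remaining patterns gave TGANTCA, an AP-1 site, in Fam3d (6.34% of all), and CAGGAA, an ETS core, in Reg3g, Lcn2, Cuzd1 and Scgb1a1 (24.7%). The forkhead pattern TGTTTAC was in Clca1 (3.21%), and its wider form TNTTTAC in Reg3g, Scgb1a1 and Clca1 (11.6%). GGGCGG, the SP1 box, was in none (30.5%), and neither was the HNF1 pattern (GTTAAT, then 1 free base, then ATTAA; 0.0448%). The glucocorticoid element (AGAACA, then 3 free bases, then TGTTCT; 0.012%) was in none, like its core TGTTCT alone (17.5%). The STAT pattern of TTC and GAA was in Prss32 with 4 free bases between them (6.25%) and in none with 3 (7.67%). The 7 promoters had a GC content of 40.8 to 57.2%, around a median of 51.2% over all promoters, and 1 to 4 CpG sites against a median of 5. A match is a description of letters in a short window, and estrogen receptor sites can lie far outside it.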

How the data were processed

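Total RNA of 12 rat uteri was read on 12 Affymetrix arrays. The authors deposited 1 linear intensity for each probe set, computed in Affymetrix Expression Console with PLIER per the submitters' processing notes. Versions, settings, any between-array normalization and a genome build were not given in the sources used here. Of 29214 probe sets, 15310 name 1 gene in the platform annotation, 323 several and 13581 none; 15303 of the first matched RefSeq. For 527 genes with several probe sets the one with the highest mean was kept, giving 14506 genes. Intensities became log2(intensity + 16), the 30% dimmest genes by mean were left out, and limma 3.58.1 (R 4.3.3; lmFit, eBayes, trend and robust off) was fitted with 1 mean per group to all 12 arrays, with Benjamini-Hochberg adjustment over 10154 genes. The code was tested on simulated data. With 3 rats per group the median standard error of a difference was 0.22 log2 units; their number limits the precision.

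The 7 genes and the gene lists were chosen with earlier results of these data known. Named besides the 7 are the 5 genes most correlated with their mean, the 2 nearest to each by deviations, up to 4 called genes with the largest difference per list (up to 2 by value where none was called) and all estrogen-response references; Lrp2, Krt8, Slpi, the neighbours and further list genes were added after their values were seen. Alternatives were quantile normalization, median centring, constants of 1 and 64, no filter or a 50% filter, means of probe sets, only the compared groups, trended and robust eBayes, a replicate block and each rat left out. Rat numbers recur across groups, and same-numbered rats deviated together at r over 0.1 in 8 of 18 pairs (−0.271 to 0.239). Differently numbered rats of different groups ranged more widely, from −0.445 (vehicle rat 2 with 3-MC rat 3) to 0.393 (vehicle rat 1 with 3-MC rat 3). Pairs of rats numbered 2 were all positive (0.087 to 0.181), and whether those rats were handled together is not given. The numbers were used only in the replicate block and not as pairs in the main fit.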

Additional observations from a re-analysis of the deposited data

How the results depend on the processing

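All 7 genes were called higher in E2 minus vehicle, E2+3-MC minus vehicle and E2+3-MC minus 3-MC under every alternative run, except that Clca1 was left out by the 50% filter, which left 6 of 6 called. Counts over all genes moved more. For E2+3-MC minus 3-MC, 834 genes were called (693 higher, 141 lower), 2651 with quantile normalization (1385 and 1266), 1156 with median centring (894 and 262), 2270 with only the compared groups and 413 to 2176 with 1 rat left out, the extremes being without 3-MC rat 2 and without vehicle rat 1; leaving out 3-MC rat 1 (495) or E2+3-MC rats 1 (489) or 3 (442) also moved it by over 1.5 times. E2 minus vehicle gave 1842 (883 higher, 959 lower), 3900 after quantile normalization, 2336 after median centring (1535 and 801), 1183 with the 50% filter, 961 with only its groups and 984 to 3538 with 1 rat left out (without E2 rat 3 and without vehicle rat 1; 1150 without E2 rat 2). E2+3-MC minus vehicle gave 796 (615 higher, 181 lower), 2649 after quantile normalization (1297 and 1352), 1069 after median centring (639 and 430), 296 with only its groups and 438 to 2699 with 1 rat left out (without E2+3-MC rat 3 and without vehicle rat 1; 460 without E2+3-MC rat 1). E2+3-MC minus E2 gave 0 genes, 2 after quantile normalization, 1 after median centring, 1 with the 50% filter, 3 with trended and robust eBayes, 144 with only its groups, 2 of them among the 7, and 0 to 117 with 1 rat left out, most without vehicle rat 1. 3-MC minus vehicle gave 0 to 1 with 1 rat left out. The cause of these moves was not tested.

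Signs turned only in differences that were not called. In 3-MC minus vehicle, Lcn2 was 0.0597 after quantile normalization and 0.0072 with a constant of 1 against −0.01, and Prss32 was −0.0872 after quantile normalization and −0.0348 after median centring against 0.05. With 1 rat left out Lcn2 ran from −0.36 to 0.60, Prss32 from −0.0864 to 0.16, Fam3d from −0.0599 to 0.0221 and Clca1 from −0.22 to 0.21. In E2+3-MC minus E2, Clca1 ran from −0.51 to 0.0570, and in the interaction from −0.46 to 0.11. With the rat number as a replicate block all 7 genes kept their calls in the 3 estradiol comparisons, and 2545, 1089 and 1140 genes were called in E2 minus vehicle, E2+3-MC minus vehicle and E2+3-MC minus 3-MC. In the defence list, by alternatives added after seeing the data, 15 genes rose after quantile normalization, 16 without vehicle rat 1 and 13 without E2+3-MC rat 2, against 14. Over all genes 1385, 1739 and 760 were called higher in those settings, against 693.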
